A study of Mus musculus with 51 samples.

Results

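In the cochlea of noise-exposed mice, 12 captured regions labelled as neurons were compared with 8 regions labelled as supporting cells. These 20 regions were taken by their labels from the 51 of the series. The animals were CBA/CaJ males of 16 weeks that had been exposed awake to broadband noise at 100 dB SPL for 2 h. Titles and treatment entries add 4 h to the exposure, whereas the design text places collection directly after it, so the delay is not settled. The comparison groups of the same strain, sex and age had a mock exposure without noise and held 16 neuron and 14 supporting-cell regions. The labels name no compound treatment for any region used here, although the series title concerns one. Measurements were made with GeoMx, in which barcoded probes bound to RNA on a tissue section are released by light from a chosen area and counted by sequencing. Sections were fresh-frozen and 6 µm thick, from 5 animals per treatment. Which animal a region came from is not in the labels. As every group has more regions than there were animals, some regions must come from 1 animal, and all p-values below, taken over regions, are too small.

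Spiral ganglion neurons are the primary auditory neurons. They receive glutamate from hair cells, carry spikes along myelinated axons to the brainstem, and rely on neurofilaments, fast ion channels and the sodium pump. Within the ganglion their cell bodies are wrapped by satellite glia and their axons by Schwann cells, whereas the supporting cells of the organ of Corti lie around the hair cells. A region is a small piece of tissue that can hold several cell types, and fewer cells of a type and less RNA per cell cannot be told apart in it.

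The values are scaled signal, which the authors had brought to the same upper quartile, 3.12, in every region. Dividing by the lowest value of a region gave reads, with a floor of 1 read. Neuron regions held 12128 to 88156 reads (median 26710) and supporting-cell regions 11770 to 25605 (median 16882). A median of 19.2% of genes stood at the floor in neuron regions and 35.4% in supporting-cell regions. The negative probe, which binds no mouse RNA, read 1.12 ± 0.235 (SD, n = 12) in neuron regions and 1.42 ± 0.202 (SD, n = 8) in supporting-cell regions. In reads, before scaling, the probe averaged 1.92 ± 0.962 (SD, n = 12) and 1.55 ± 0.300 (SD, n = 8), in the other order. Depth and scaled background therefore moved with the region type. For the genes of the naming rule the text says where a correction for either ended a call. A 13th noise neuron region, replicate 6, had the same value for every gene and was left out. Some entries in supporting-cell regions held a letter in place of a value (60 entries over 59 genes) and were treated as missing.

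The labels were first checked against marker genes. For scale, 6.76% of all tested genes were higher in neuron regions and 1.17% in supporting-cell regions. All 11 neuron markers listed in the files passed the filter on low values, and 9 of them were higher in neuron regions. Their summed signal ran from 103.9 to 237 (median 190.3) in neuron regions and from 34.3 to 99.2 (median 85.0) in supporting-cell regions, so the 2 ranges did not overlap. All 11 listed markers of Schwann cells and satellite glia were also tested. Their sum ran from 20.8 to 39.5 (median 30.5) in neuron regions and from 53.0 to 88.9 (median 68.6) in supporting-cell regions, again without overlap. Only 3 of 12 markers of organ of Corti supporting cells were in the files. Sox2, a transcription factor among them, had a median of 1.04 in the supporting-cell regions and 1.19 in the neuron regions, and it fell below the filter. Sparcl1, a secreted matrix protein on the same list, was higher in neuron regions. Prox1, also on the list, had medians of 1.98 in supporting-cell and 3.12 in neuron regions and was not called. The regions labelled as supporting cells thus carried glial markers. Of the 2 tested organ of Corti markers none was called higher there, and the median of Sox2 did not exceed the negative probe's mean. Hair-cell markers were near that background too: the 2 in the files, Slc26a5 and Strc, summed to a median of 3.12 in both region types and were not tested. The only blood marker present, Hba-a1, had medians of 0.780 and 1.56 in neuron and supporting-cell regions, and no macrophage marker was analysed here. Of 4 tested endothelial and pericyte markers, 1, Rgs5, was higher in supporting-cell regions, and the sum over the 5 listed genes ran from 5.46 to 11.4 in neuron regions and from 9.36 to 16.6 in supporting-cell regions. Among 6 tested bone and connective tissue markers, Coch was higher in supporting-cell regions and Spp1 in neuron regions. How far the makeup of the regions contributes to each gene below was not tested.

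Neuron markers were present in supporting-cell regions and varied among them. The sum was 34.3, 48.9 and 43.7 in the supporting-cell regions of areas 2, 7 and 10, and between 81.1 and 99.2 in the other 5. The glial sum in those 3 regions was 71.7, 65.5 and 53.0, against 60.0 to 88.9 in the other 5, so that of area 10 was the lowest of all 8. Neuron regions also varied, and the lowest neuron sum, 103.9, came from area 10. The worth of 1 read varied as well. In the neuron regions of areas 9 and 10, with 12128 and 12792 reads, it was 1.56 and 1.04, as their upper quartiles were 2 and 3 reads. In the supporting-cell regions of areas 6 and 10 it was 0.780 and 1.04. The order of these sums among regions of the same type therefore depends on that unit, and shares of reads were not compared.

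Of 4686 genes tested with limma, 317 (6.76%) were higher in neuron regions and 55 (1.17%) were higher in supporting-cell regions after noise, at a Benjamini-Hochberg adjusted p under 0.05. All differences are given as neurons minus supporting cells in log2(value + 1), a scale on which differences of weakly detected genes come out too small. The genes higher in neurons differed by 0.67 to 1.82 (median 0.93), and 123 of them by 1 or more. The genes higher in supporting cells differed by 0.65 to 1.91 in size (median 0.77), and 9 of them by 1 or more. Over all tested genes the median difference was 0.05. Neuron regions thus accounted for 85.2% of the calls. That share was 68.3% after quantile normalization, with 226 and 105 genes, 76.5% (224 and 69) after centring each region on its median, and 95.4% (375 and 18) after subtracting the negative probe. With only the 6 neuron and 7 supporting-cell regions of shared read totals, 155 and 20 genes were called, and with the log2 total as a covariate 198 and 40. With the captured area as a block 244 and 38 genes were called, of which 222 and 29 were among the 317 and 55.

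**Figure D1:**
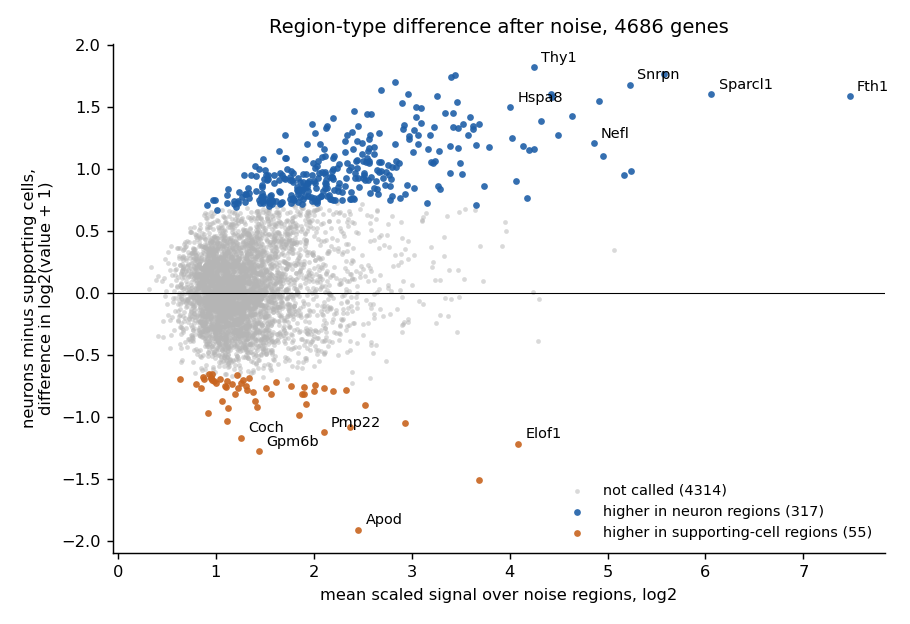
Each point is 1 of 4686 tested genes: the horizontal axis is its mean scaled signal over the 20 noise regions on a log2 scale, and the vertical axis is the difference neurons minus supporting cells in log2(value + 1). Blue marks the 317 genes called higher in neuron regions and orange the 55 called higher in supporting-cell regions; the orange genes lie mostly at low signal, with Apod furthest down.

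In 14 genes (0.299%) every neuron region exceeded every supporting-cell region. Among them were Adam23, Ank2, Atp1b1, Dmtn, Fam189a2, Gdi2, Hspa8, Kif5a, Ndrg4, Sh3gl2, Snrpn, Sparcl1 and Stmn3. In 3 genes (0.064%), Apod and Gpm6b among them, every supporting-cell region exceeded every neuron region. These genes are listed because their ranges did not meet, a choice made with the values in view.

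Thy1, a surface glycoprotein of neurons, showed the largest difference towards neurons among the genes named by size. Its signal was 13.5 to 35.2 (median 27.1) in neuron regions and 3.12 to 14.3 (median 7.02) in supporting-cell regions. The means were 26.8 ± 7.11 (SD, n = 12) and 7.35 ± 3.85 (SD, n = 8), a difference of 1.82 (SE 0.229, limma adjusted p = 1.48e-12). All but 1 of the neuron regions lay above the highest supporting-cell region. Atp2b2, a plasma-membrane calcium pump, gave 15.5 ± 3.68 (SD, n = 12) against 4.07 ± 1.83 (SD, n = 8), a difference of 1.76. Atp1b1, a beta subunit of the sodium pump, averaged 40.6 in neurons and 14.3 in supporting cells. It is outside the naming rule and was chosen with its values in view.

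Fth1, the iron-storing heavy chain of ferritin, read 110.2 to 322.4 (median 265.5) in neuron regions and 32.0 to 122.9 (median 82.6) in supporting-cell regions, a difference of 1.59 (SE 0.0953). That SE comes from genes of similar mean and is too small where a gene varies more. The means of Fth1 were 240.8 ± 66.3 (SD, n = 12) and 83.1 ± 32.7 (SD, n = 8). Again 11 of 12 neuron regions exceeded every supporting-cell region, but after quantile normalization, which equalises the highest signals, the difference was 0.14 and did not pass (limma adjusted p = 0.169). Sparcl1 read 60.3 to 108.5 (median 93.4) against 17.7 to 41.3 (median 28.8), with no overlap and a difference of 1.60 (SE 0.149). Snrpn, an imprinted spliceosome component prominent in neurons, read 26.0 to 72.8 (median 50.0) against 10.9 to 23.7 (median 13.8), also with no overlap, and differed by 1.68 (SE 0.186). Sh3gl2, an endophilin that acts in synaptic vesicle recycling, gave 11.0 ± 2.88 (SD, n = 12) and 3.07 ± 1.52 (SD, n = 8). Abr, a GTPase-activating protein, and Tlcd3b, an enzyme of ceramide synthesis, differed by 1.70 and 1.64. Thy1, Fth1, Sparcl1, Snrpn, Sh3gl2, Abr and Tlcd3b were each higher in neurons in all 7 areas where both region types had been captured and could be used.

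**Figure D2:**
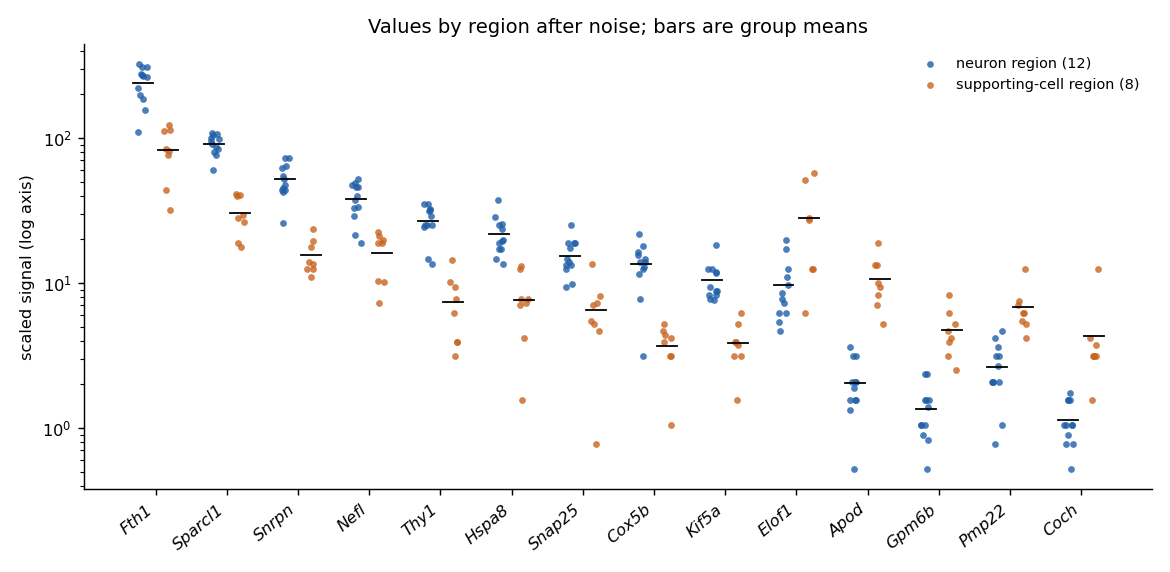
Scaled signal on a log axis of 14 genes in each of the 12 neuron regions (blue) and 8 supporting-cell regions (orange) after noise; black bars are group means, and Elof1 has 7 supporting-cell values. The neuron values of Sparcl1, Snrpn, Hspa8 and Kif5a lie wholly above the supporting-cell values, those of Apod and Gpm6b lie wholly below, and Elof1 spreads from 6.24 to 57.7 among the supporting-cell regions.

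Among the 5 neuronal lists, the cytoskeleton had the largest share of members called. Of 19 tested genes for neurofilaments and microtubules, 11 were higher in neuron regions, where 6.76% of all tested genes were, and none in supporting-cell regions. The list's median difference was 0.85 against 0.05 over all tested genes. Neurofilament subunits set the calibre of large axons. Nefl, the light subunit, read 18.7 to 52.0 (median 38.6) in neuron regions and 7.28 to 22.6 (median 18.7) in supporting-cell regions. The difference was 1.21 (SE 0.201, limma adjusted p = 3.89e-07), and 10 of 12 neuron regions lay above the highest supporting-cell region. Nefm differed by 1.38 and Nefh by 1.27. Map1b and Map2, which bind and stabilise microtubules, differed by 1.60 and 1.53. Tubb3, the neuronal beta tubulin, differed less, at 5.43 ± 1.22 (SD, n = 12) against 2.96 ± 1.50 (SD, n = 8), or 0.79 (limma adjusted p = 0.0313). Tubb3 missed the threshold in 14 of its 39 alternative fits, among them those with the read or the olfactory covariate, in regions of shared read totals, with the area block, without noise neuron replicate 3 or 7 and without supporting-cell replicate 1 or 5, and Nefl missed it in 1, quantile normalization (adjusted p = 0.0882).

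Genes of transmitter release were higher in neurons where they were called. Of 25 tested genes of the synaptic vesicle list, 8 were higher in neurons (6.76% of all tested genes were) and none in supporting cells, with a median difference of 0.42. Snap25, a core fusion protein, read 9.36 to 24.9 (median 14.3) in neuron regions and 0.780 to 13.5 (median 6.24) in supporting-cell regions, a difference of 1.27 (SE 0.242). The ranges overlapped, with 7 neuron regions above every supporting-cell region. Sv2c, a vesicle glycoprotein, and Cplx1, which clamps fusion, differed by 1.24 and 1.14.

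Of 13 tested genes that mark spiral ganglion neurons or their subtypes, 6 were higher in neurons, beside 6.76% of all tested genes, and none in supporting cells, with a median difference of 0.47. Calb2, a calcium buffer of a subset of these neurons, gave 15.5 ± 5.87 (SD, n = 12) against 5.54 ± 2.60 (SD, n = 8), a difference of 1.36 (SE 0.25). Lypd1, a modulator of nicotinic receptors that marks another subset, differed by 1.18. Slc17a7, a vesicular glutamate transporter, differed by 1.12, at 7.93 ± 3.05 (SD, n = 12) and 3.44 ± 2.37 (SD, n = 8). The related transporter Slc17a6 did not pass, at means of 2.52 and 2.28, which is close to the background.

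Voltage-gated channels and axonal motors followed the same direction. Of 24 tested channel genes 11 were higher in neurons and none in supporting cells (median 0.51), again beside 6.76% and 1.17% of all tested genes. Kcnab2, an auxiliary subunit of potassium channels, differed by 1.74 (SE 0.249), with 11 neuron regions above all supporting-cell regions. Kcnc1, a pore subunit that lets neurons fire fast, read 4.16 to 12.5 (median 8.32) against 1.04 to 6.24 (median 2.81), a difference of 1.18 (SE 0.256). Of 16 tested motor genes 7 were higher in neurons and none in supporting cells (median 0.46), against the same background. Klc1, a kinesin light chain, differed by 1.32, the kinesin heavy chains Kif5a and Kif5c by 1.26 and 1.06, and Kif1a, which carries synaptic vesicle precursors, by 1.20. Kif5a read 7.57 to 18.2 in neuron regions and 1.56 to 6.24 in supporting-cell regions, without overlap.

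**Figure D3:**
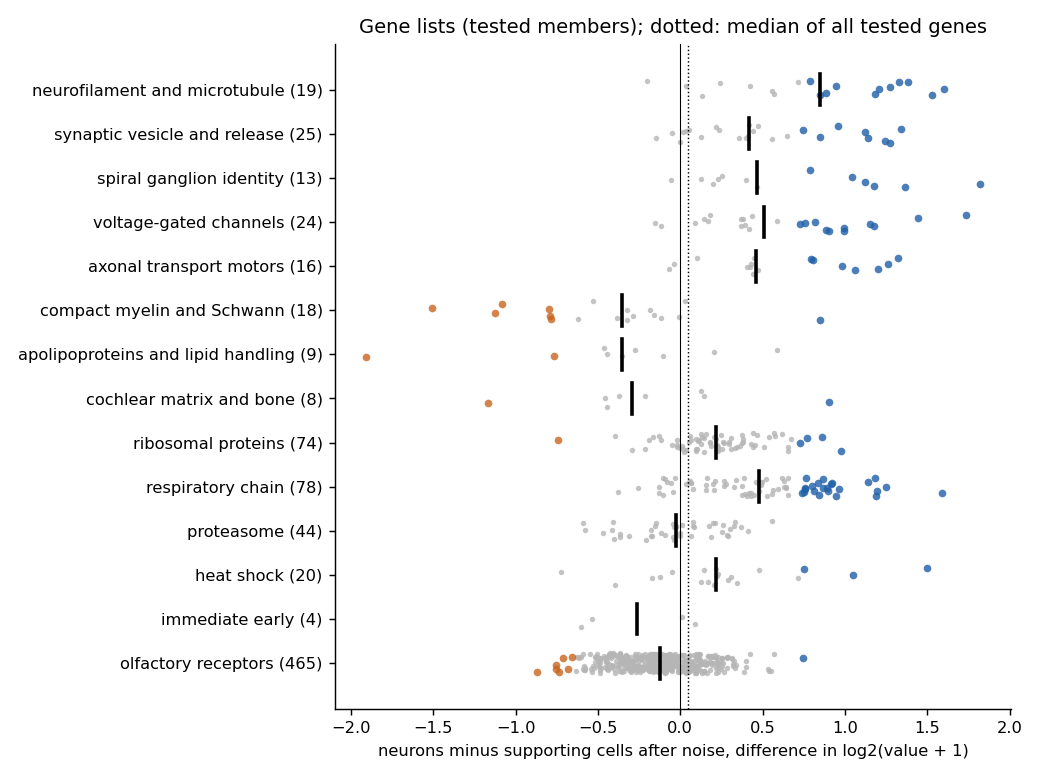
Differences neurons minus supporting cells after noise, in log2(value + 1), for the tested members of 14 gene lists (number tested in brackets); blue points were called higher in neurons, orange higher in supporting cells, grey not called, the black bar is the list's median and the dotted line the median of all tested genes, 0.05. The 5 neuronal lists and the respiratory chain have medians from 0.42 to 0.85, and the myelin and lipid lists have medians of -0.35 and -0.36.

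Nuclear genes of the respiratory chain, which makes ATP in mitochondria, were the largest list with a shift towards neurons. Of 78 tested genes 23 were higher in neurons, where 6.76% of all tested genes were, and none in supporting cells. Their median difference was 0.48, and 67 had a positive difference where 55.4% of all tested genes did. Cox5b, a subunit of cytochrome oxidase, read 3.12 to 21.8 (median 14.0) in neuron regions and 1.04 to 5.20 (median 4.03) in supporting-cell regions, a difference of 1.59 (SE 0.251). The ATP synthase subunits Atp5a1 and Atp5c1 differed by 1.25 and 1.18, and Cox6a1 by 1.19. In Atp5a1, supporting-cell replicate 2 read 23.4 while the other 7 read 3.12 to 10.6; without it the difference was 1.45.

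The chaperone list was mixed. Of 20 tested heat-shock genes 3 were higher in neurons (6.76% of all tested genes were) and none in supporting cells, with a median difference of 0.22. Hspa8, the constitutive member of the large heat-shock cognate family, read 13.5 to 37.4 (median 19.6) in neuron regions and 1.56 to 13.1 (median 7.54) in supporting-cell regions. The ranges did not overlap, and the difference was 1.50 (SE 0.231, limma adjusted p = 2.75e-08). Hsp90aa1 differed by 1.05. Hsp90ab1 differed by 0.75 (limma adjusted p = 0.043) and missed the threshold in 19 of 39 alternative fits, among them those with the read or the olfactory covariate, in regions of shared read totals, without noise neuron replicate 3, 4, 5, 7, 8 or 11 or supporting-cell replicate 2, 5 or 7. Cryab, a small heat-shock protein, was at 3.99 ± 1.57 (SD, n = 12) in neurons and 7.17 ± 2.59 (SD, n = 8) in supporting cells, a difference of -0.73 that did not pass (limma adjusted p = 0.0564). All 7 shared areas had the higher Cryab value in the supporting-cell region, and Cryab passed in that direction in 15 of its 39 alternative fits. Hsf1, the main transcription factor of the heat-shock response, averaged 1.54 and 1.34 and did not pass; it is outside the naming rule and was chosen with its values in view.

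Immediate-early genes, which many cells induce within minutes to hours of a stimulus, were few in the files: 5 of 31 were listed and 4 tested. None was called by limma, beside the 7.94% of all tested genes called in either direction, and 2 had an unadjusted p under 0.05. On recovered reads DESeq2 called none and edgeR called 1, Maff. Maff and Zfp36 had differences of -0.60 (limma adjusted p = 0.0938) and -0.54 (0.139). They passed in the same direction in 4 of 38 and 2 of 37 alternative fits. Jun read 2.19 ± 1.37 (SD, n = 12) in neurons and 1.89 ± 0.864 (SD, n = 8) in supporting cells, a difference of 0.09, and Jund differed by 0.01. The sign of both changed between fits: with the mean of the olfactory receptors as covariate Jun was at -0.07 and Jund at -0.16.

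Genes of protein synthesis and breakdown came next. Of 74 ribosomal protein genes, 5 were called, 4 towards neurons and 1 towards supporting cells, a share near the 7.94% of all tested genes called in either direction. The list's median was 0.22, and 61 of the 74 had a positive difference where 55.4% of all tested genes did. Rpl7a read 5.20 to 10.9 (median 8.62) in neuron regions and 2.08 to 9.36 (median 3.12) in supporting-cell regions, a difference of 0.97 (SE 0.256, limma adjusted p = 0.00408). The highest of these supporting-cell values came from replicate 4, and the other 7 were at most 4.37. In the regions of shared read totals Rpl7a did not pass (limma adjusted p = 0.143). Rps26 and Rps3a1 differed by 0.86 and 0.77 and did not pass after quantile normalization (limma adjusted p = 0.248 and 0.725) or in the regions of shared read totals, and Rps26 was also lost with the read covariate. The fourth, Rpl28, differed by 0.73. Rpl35 was higher in supporting cells by 0.74, at 2.96 ± 1.51 (SD, n = 12) against 5.64 ± 2.90 (SD, n = 8), with a limma adjusted p of 0.0414 that missed the threshold in 17 of 39 alternative fits, among them those with the negative probe subtracted, with the olfactory covariate, with the area block, without noise neuron replicate 3, 5, 9, 10, 11 or 12 or supporting-cell replicate 2, 3, 6 or 8. Of 44 tested proteasome genes none was called by limma, beside 7.94% of all tested genes, with 4 at an unadjusted p under 0.05, and their median was -0.02. On recovered reads edgeR called none (3 unadjusted) and DESeq2 called 1, Psmd5 (6 unadjusted). The 4 with the smallest p, Psmb5, Psmd5, Psmc6 and Psmb11, had differences of -0.58, -0.59, 0.55 and -0.47.

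Myelin genes led the other direction. Of 18 tested genes of compact myelin and Schwann cells 6 were higher in supporting-cell regions (33.3% of the list, where 1.17% of all tested genes were) and 1 in neuron regions, with a median difference of -0.35. Pmp22, a compact myelin protein whose dosage is altered in a hereditary neuropathy, read 0.780 to 4.68 (median 2.38) in neuron regions and 4.16 to 12.5 (median 6.24) in supporting-cell regions. The means were 2.63 ± 1.18 (SD, n = 12) and 6.78 ± 2.53 (SD, n = 8), a difference of -1.12 (SE 0.257, limma adjusted p = 0.000597). In 7 of the 8 supporting-cell regions Pmp22 exceeded every neuron region. Cnp, Mpzl1 and Qk were also among the 6. The exception was Nfasc, an adhesion molecule with glial and axonal forms, at 4.53 ± 1.39 (SD, n = 12) in neurons and 2.07 ± 0.885 (SD, n = 8) in supporting cells, a difference of 0.85 that missed the threshold in 3 of 39 fits, those with the read covariate, in regions of shared read totals and by DESeq2. The myelin genes Mbp and Prx had differences of -0.32 each and did not pass, and Sox10, the transcription factor of the glial lineage, had -0.62 (limma adjusted p = 0.0715).

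Apod, a lipid-binding secreted protein made by glia, had the largest difference of all genes called. It read 0.520 to 3.64 (median 1.98) in neuron regions and 5.20 to 18.7 (median 9.67) in supporting-cell regions. The 2 ranges were separate, all 7 shared areas had the higher value in the supporting-cell region, and the difference was -1.91 (SE 0.256, limma adjusted p = 5.60e-11). The median Apod count was 3 reads in a neuron region and 10.5 in a supporting-cell region, so the neuron level lay near the background. Of the 9 tested genes for apolipoproteins and lipid handling 2 were higher in supporting cells, Apod and Scd2, a fatty-acid desaturase, and none in neurons. Of all tested genes, 1.17% were higher in supporting cells and 6.76% in neurons. Scd2 differed by -0.77 (limma adjusted p = 0.0389) and missed the threshold in 16 of 39 alternative fits, among them those with the negative probe subtracted, with the olfactory covariate, in regions of shared read totals, without noise neuron replicate 2, 7, 10 or 12 or supporting-cell replicate 2, 3, 5, 6 or 8. Apoe, the lipid carrier of many glia, was at 1.10 ± 0.608 (SD, n = 12) and 1.78 ± 1.22 (SD, n = 8), both near the negative probe, and its difference of -0.36 did not pass (limma adjusted p = 0.405). Scd1 at -0.46 and Psap, a lysosomal sphingolipid activator, at 0.59 did not pass either.

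**Figure D4:**
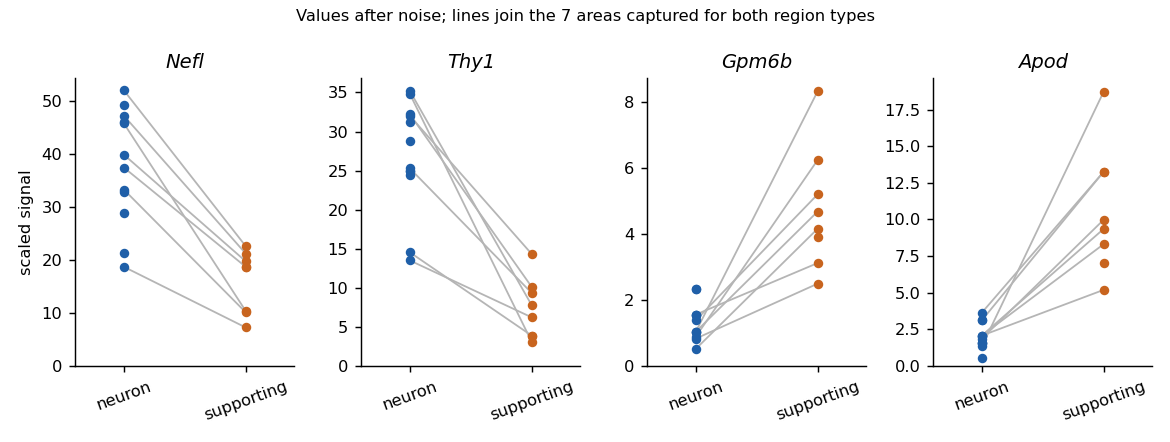
Scaled signal after noise of Nefl, Thy1, Gpm6b and Apod in neuron regions (blue, 12) and supporting-cell regions (orange, 8), each panel with its own axis from 0; grey lines join the 7 areas in which both region types were captured and usable. Each of the 7 lines falls from neuron to supporting-cell region for Nefl and Thy1 and rises for Gpm6b and Apod.

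Several other genes were among the 12 with the largest differences towards supporting cells. Gpm6b, a membrane proteolipid, read 0.520 to 2.34 (median 1.21) against 2.49 to 8.32 (median 4.42), with no overlap and a difference of -1.27 (SE 0.251). Its median count was 2 reads in a neuron region and 4.5 in a supporting-cell region, so the neuron level lay near the background. In unscaled reads the ranges met, as a count of 4 occurred in both region types. Glul, the enzyme by which glia turn glutamate into glutamine, gave 2.32 ± 1.34 (SD, n = 12) and 5.55 ± 2.52 (SD, n = 8), a difference of -0.98. It kept its call in 38 of 39 alternative fits and lost it with the replicate number as a block (limma adjusted p = 0.199). Same-numbered regions came from different areas, so that block does not pair regions. Mt1, a metal-binding stress protein, differed by -0.90, and lost its call with the negative probe subtracted, in the regions of shared read totals, with the replicate block and without supporting-cell replicate 2. Psd, an exchange factor for small GTPases, differed by -0.89, and Rnf44, a RING-finger protein, by -0.81. Neither was called with the captured area or the replicate number as a block. Rnf44 also lost its call with the negative probe subtracted, with the olfactory covariate, in regions of shared read totals, and without supporting-cell replicate 2 or 4. Of the 8 tested cochlear matrix and bone genes 1 was higher in each region type, beside 6.76% (neurons) and 1.17% (supporting cells) of all tested genes. Coch, the gene of cochlin, an abundant protein of inner-ear matrix, read 0.520 to 1.73 (median 1.04) in neuron regions and 1.56 to 12.5 (median 3.12) in supporting-cell regions, a difference of -1.17 (SE 0.247, limma adjusted p = 0.000133). The highest of these came from replicate 1, and without it the difference was -0.95. The neuron values of Coch were at the level of the negative probe. Spp1, osteopontin, gave 20.6 ± 6.43 (SD, n = 12) in neurons and 10.7 ± 3.71 (SD, n = 8) in supporting cells, a difference of 0.91 that did not pass after quantile normalization (limma adjusted p = 0.317) or in the regions of shared read totals. Sparc and Ogn had -0.45 and -0.46 and did not pass.

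Elof1, a transcription elongation factor, and Rgs19, a regulator of G-protein signalling, were also higher in supporting-cell regions, and their means exceeded the negative probe in both region types. Elof1 read 4.68 to 19.8 (median 8.13) in neuron regions and 6.24 to 57.7 (median 27.0) in 7 supporting-cell regions; the eighth entry was missing. The supporting-cell values fell widely apart, at 57.7 and 51.5 in areas 2 and 6, at 28.1 and 27.0 in areas 3 and 7, and at 12.5, 12.5 and 6.24 in areas 4, 12 and 8. The highest neuron value, 19.8, was also from area 2. The means were 9.67 ± 4.71 (SD, n = 12) and 27.9 ± 20.0 (SD, n = 7), a difference of -1.21 (SE 0.267, limma adjusted p = 0.000294). With the spread of Elof1 alone, which is larger than that of genes of similar mean, the limma adjusted p was 0.0328, and an exact two-sided permutation test over regions on this gene gave p = 0.00562. Rgs19 gave 5.33 ± 2.76 (SD, n = 12) and 11.0 ± 2.30 (SD, n = 7), a difference of -1.05 (limma adjusted p = 0.0029, or 0.039 with its own spread).

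Olfactory receptor genes, which have no known role in the cochlea, served as a view of the background. Of 465 tested, 1 was higher in neurons, where 6.76% of all tested genes were. Another 7 were higher in supporting cells, a share near the 1.17% of all tested genes. The median difference of the 465 was -0.12. Their mean log2(value + 1) was 1.60 ± 0.105 (SD, n = 12) in neuron regions and 1.71 ± 0.106 (SD, n = 8) in supporting-cell regions. Olfr1186, with the smallest p, read 1.24 ± 0.493 (SD, n = 12) and 3.35 ± 1.86 (SD, n = 8), or medians of 1.5 and 3 reads, and the call of -0.87 rested on counts of that size. It was lost with the olfactory covariate and in the regions of shared read totals. Olfr551 was lost with the negative probe subtracted, and Olfr607 with that and with each correction for reads or olfactory mean. With the olfactory mean as a covariate, 252 genes were called towards neurons, 242 of them among the 317, and 22 towards supporting cells, all among the 55. Under all 3 corrections for background or depth (the negative probe subtracted, the olfactory covariate and the covariate of total reads) 186 of the 317 neuron calls and 14 of the 55 supporting-cell calls were kept. Among the 14 were Apod, Coch, Elof1, Glul, Gpm6b, Igfbp4, Pmp22, Psd, Rgr, Rgs19, Rgs5 and Zfp36l1.

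The start-site windows of 4 called genes, taken among those held in the reference, show how base composition varied within and between the groups. They are given 5′ to 3′ on the gene's strand, 300 bases each, from RefSeq GRCm38.p6, with 2 genes higher in neurons and then 2 genes higher in supporting cells. Capitals mark GGGCGG, the core of a GC box, and ACAAAG or ACAATG, the core read by SOX factors, on either strand. Atp1b1 lies at chr1:164458306-164458605 (minus strand), Map2 at chr1:66175079-66175378 (plus strand), Apod at chr16:31314759-31315058 (minus strand) and Coch at chr12:51593091-51593390 (plus strand).
Atp1b1: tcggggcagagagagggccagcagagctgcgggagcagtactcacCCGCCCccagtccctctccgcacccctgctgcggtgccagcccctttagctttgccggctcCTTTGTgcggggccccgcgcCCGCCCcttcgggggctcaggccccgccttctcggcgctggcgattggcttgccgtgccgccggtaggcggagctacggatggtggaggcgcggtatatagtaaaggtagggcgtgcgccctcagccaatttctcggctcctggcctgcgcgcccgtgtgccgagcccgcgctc
Map2: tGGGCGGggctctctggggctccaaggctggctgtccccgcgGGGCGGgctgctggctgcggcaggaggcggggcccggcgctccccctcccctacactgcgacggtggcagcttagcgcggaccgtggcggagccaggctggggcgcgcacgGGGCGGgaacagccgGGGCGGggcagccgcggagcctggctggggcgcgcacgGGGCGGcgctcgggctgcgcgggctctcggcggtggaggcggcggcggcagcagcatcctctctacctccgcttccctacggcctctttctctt
Apod: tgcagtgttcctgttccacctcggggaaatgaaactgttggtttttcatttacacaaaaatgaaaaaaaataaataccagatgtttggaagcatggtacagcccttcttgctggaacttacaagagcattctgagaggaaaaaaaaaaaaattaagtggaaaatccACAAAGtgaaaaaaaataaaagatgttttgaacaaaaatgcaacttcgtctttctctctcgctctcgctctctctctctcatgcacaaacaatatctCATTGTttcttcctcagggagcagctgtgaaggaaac
Coch: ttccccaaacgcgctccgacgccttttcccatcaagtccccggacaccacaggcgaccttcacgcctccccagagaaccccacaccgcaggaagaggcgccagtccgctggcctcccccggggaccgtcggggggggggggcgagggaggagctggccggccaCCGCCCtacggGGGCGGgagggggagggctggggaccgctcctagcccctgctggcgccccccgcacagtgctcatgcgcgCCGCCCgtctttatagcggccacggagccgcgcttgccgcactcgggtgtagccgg
The Atp1b1 window holds 31 CG pairs, 2 GC boxes and 1 SOX core, and the Map2 window holds 37 CG pairs, 5 GC boxes and no SOX core. The Apod window holds 4 CG pairs, no GC box and 2 SOX cores. The Coch window is unlike that of Apod, with 32 CG pairs, 3 GC boxes and no SOX core. Of the windows held, those of 244 genes called higher in neurons had a median of 24 CG pairs, those of 47 genes called higher in supporting cells 15, those of 3757 tested genes 20, and those of all 27025 genes 7. A GC box occurred in 66.0% of the neuron group, 46.8% of the supporting-cell group, 57.8% of tested genes and 35.9% of all genes. A SOX core occurred in 18.0%, 27.7%, 22.3% and 28.8%, in the same order. These shares are descriptions of letters in windows of equal length, and no test was made of them.

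The same contrast was then set beside the mock-exposed regions, which share no region with the noise groups. After mock exposure 629 genes (13.4%) favoured neuron regions and 264 (5.63%) favoured supporting-cell regions. Of the 317 genes higher in neurons after noise, 266 (83.9%) were also called after mock, and 314 had the same sign. Of the 629, 42.3% were called after noise and 616 had the same sign, with a median difference of 0.61 after noise and 0.78 after mock. Of the 55 genes higher in supporting cells after noise, 25 (45.5%) were also called after mock, and all 55 had the same sign. Of the 264, 9.47% were called after noise and 212 had the same sign, with a median difference of -0.21 after noise and -0.59 after mock. The groups differed in number of regions (12 and 8 after noise, 16 and 14 after mock) and in depth. Mock supporting-cell regions held a median of 12885 reads with 51.6% of genes at the floor, against 16882 and 35.4% after noise. For neuron regions these were 23494 and 31.3% after mock, against 26710 and 19.2%. The mean negative probe in supporting-cell regions was 1.54 after mock and 1.42 after noise. These counts therefore do not by themselves show a difference between treatments.

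**Figure D5:**
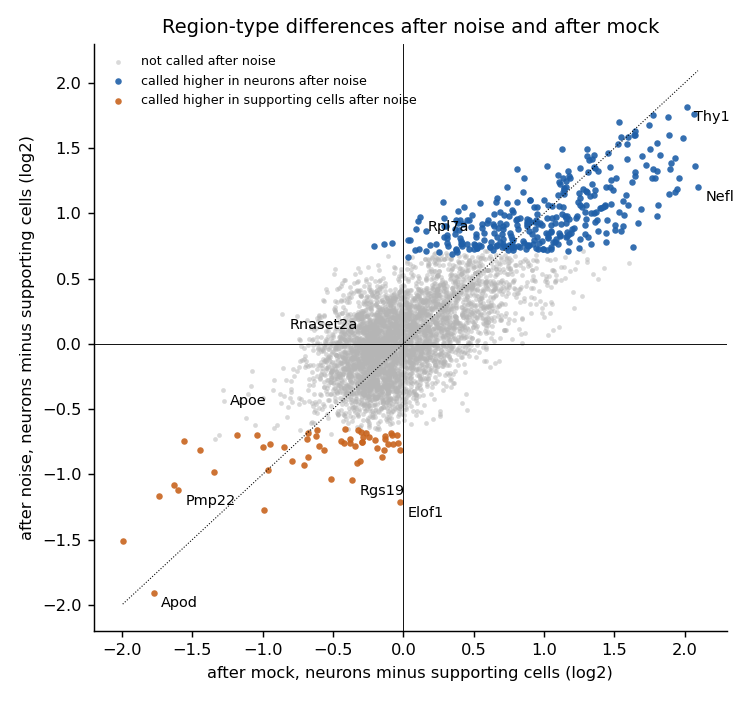
Difference neurons minus supporting cells in log2(value + 1) after mock exposure (horizontal) and after noise (vertical) for 4686 tested genes; blue and orange mark the genes called after noise and the dotted line marks equal differences. Elof1 lies at -0.02 after mock and -1.21 after noise, and Nefl at 2.10 and 1.21.

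The difference between treatments was tested directly for every gene, and limma called 0 of 4686 (0%). The smallest adjusted p was 0.588, and 263 genes (5.61%) had an unadjusted p under 0.05. On recovered reads edgeR and DESeq2 also called 0, with 185 and 121 genes at an unadjusted p under 0.05. After quantile normalization Elof1 alone was called (difference of differences -1.71, limma adjusted p = 0.0027). That p rests on the spread of genes of similar mean, and Elof1 varied more than those. With the variance of each gene alone and no quantile normalization, 0 genes were called (smallest limma adjusted p = 0.639). In the main comparison Elof1 had the smallest unadjusted p (0.000404), with 3.44 and 3.85 in mock neuron and supporting-cell regions against 9.67 and 27.9 after noise. The next were Rnaset2a, Nefl and Olfr1272, with unadjusted p of 0.000488, 0.000546 and 0.000617. For Rnaset2a, a ribonuclease, the regional difference was 0.23 after noise and -0.86 after mock. Nefl averaged 37.7 in noise neurons and 16.1 in noise supporting cells, against 50.8 and 11.5 after mock, or 1.21 and 2.10 on the log2 scale. Olfr1272 is an olfactory receptor gene at 3.68 and 2.33 after noise, with medians of 6.5 and 2 reads.

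Among the lists, the medians after noise and after mock were 0.85 and 0.98 for the cytoskeleton, 0.42 and 0.71 for synaptic vesicle genes, 0.51 and 0.69 for channels and 0.46 and 0.85 for motors. The respiratory chain had 0.48 after either exposure. The myelin list had -0.35 after noise and -0.71 after mock, where 12 of its 18 genes were higher in supporting cells. Pmp22 averaged 15.6 after mock and 6.78 after noise in the supporting-cell regions, with 4.79 and 2.63 in the neuron regions, and its regional difference was -1.60 and -1.12. The difference between these did not pass (limma adjusted p = 0.885). Apoe was called after mock (-1.28) and not after noise (-0.36), and the difference between these had an unadjusted p of 0.00122, which did not pass adjustment over all genes. The summed glial markers ran from 106.0 to 193.3 in mock supporting-cell regions and from 53.0 to 88.9 in noise supporting-cell regions, beside these values. In these regions 1 read was worth a median of 1.30 after mock and 0.910 after noise. How far depth and scaling contribute to the levels of either treatment was not tested. Rpl7a and Rps26 were called after noise (0.97 and 0.86) and not after mock (0.12 and 0.16), with unadjusted p of 0.00923 and 0.0207 for the difference and none after adjustment.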

How the data were processed

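GeoMx signal was deposited for 51 regions; the 20 noise regions used here were compared, with 30 mock regions in the same fit. Groups were taken from the sample titles, and the fit had 1 mean for each of the 4. The authors deposited scaled signal for 6248 genes and 1 negative probe, with 1 upper quartile in all regions; 99.99% of values were whole multiples (within 0.01) of 1 read's worth, and 1 gene was not. The submitters' processing notes name DRAGEN, mm10 and GRCm38; probe filtering and the meaning of lettered entries are not given in the sources used here. The labels' protocol describes libraries from total RNA and does not describe probe counting.

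Counts had been planned for edgeR. As the files held scaled signal, limma 3.58.1 (R 4.3.3; lmFit, eBayes with a trend) was run on log2(value + 1) for the 4686 genes whose mean reached the 0.25 quantile (1.85), with Benjamini-Hochberg adjustment. Its prior degrees of freedom were infinite, so SEs come from genes of similar mean and are too small for genes that vary more; a missing entry drops that region for that gene. edgeR 4.0.16 and DESeq2 1.42.0 were run on recovered reads as alternatives. The script was tested on simulated data.

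Members, gene lists and tests were chosen with earlier results of these data known. Genes named are the 12 largest called differences in each direction among genes whose mean reached the median of those tested (2.30), up to 4 tested genes of smallest p per list, the 4 smallest p of the treatment difference, and Nefl, Tubb3, Snap25, Thy1, Calb2, Apod, Apoe, Coch, Pmp22 and Elof1. Some genes these rules take are not reported here. Others are called chosen with values in view, or are members named beside their list or marker count. Same-numbered regions came from different areas and did not deviate together (7 pairs, correlations -0.04 to 0.03). No 2 regions were identical. Of the symbols, 6233 matched RefSeq GRCm38.p6 as current names, 4 as synonyms and 11 not.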

Additional observations from a re-analysis of the deposited data

Results flagged for a closer look

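Among 82 quantities examined (the genes taken by the naming rule and measures of each region), 10 had 1 noise supporting-cell region far from the remaining ones; chance gives such a gap in about 1 of 20 groups. Replicate 2 stood apart in 6 of them, in scaled signal. Its Atp5a1 was 23.4 (others 3.12 to 10.6; 15 reads), its Pmp22 12.5 (others 4.16 to 7.48), its Psd 10.9 (others 2.34 to 6.24), its Rgs19 15.6 (others 8.32 to 11.4) and its Olfr908 1.56 (others 0.624 to 1.04; 1 read). Its negative probe was 1.89 where the others were at 1.24 to 1.44, and its read total, 11770, was the lowest of the group. In this region 1 read was worth 1.56, the most of the group. Olfr908 was 1 read in every supporting-cell region, and in reads the negative probe of replicate 2, 1.21, was the lowest of the group. Its Pmp22 and Psd were 8 and 7 reads, within the 4 to 12 and 3 to 8 reads of the others.

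Replicate 1 had Coch at 12.5 (others 1.56 to 4.16; 16 reads) and Nfasc at 3.90 (others 1.04 to 2.34; 5 reads). Replicate 3 had Olfr607 at 1.04 (others 3.12 to 4.68; 1 read). Replicate 4 had Rpl7a at 9.36 (others 2.08 to 4.37; 12 reads). Each of these 9 genes stayed called, in the same direction, without the region concerned.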

How the results depend on the processing

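The genes higher in neurons numbered 242 to 350 and those higher in supporting cells 41 to 63 when 1 region at a time was left out, beside 317 and 55. DESeq2 called 168 genes higher in neurons, the covariate of total reads 198, and the regions of shared read totals 155. Genes higher in supporting cells numbered 105 after quantile normalization, 18 with the negative probe subtracted, 22 with the olfactory covariate and 20 in the regions of shared read totals. The treatment difference was 0 genes except after quantile normalization (1). The remaining alternatives gave counts within 1.5 times; the cause of the changes was not tested. With the replicate block 292 and 38 genes were called; the numbers do not pair the regions.

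Of the genes taken by the naming rule and called higher in neurons, 32 stayed called in every fit and 11 were lost in some. Towards supporting cells 8 stayed and 9 were lost, of which Glul was lost only with the replicate block. Jun (0.09) changed sign with the olfactory covariate (-0.070) and the area block (-0.18), and ran from -0.014 to 0.18 when single regions were left out. Jund (0.01) was -0.091 after quantile normalization, -0.071 with medians centred, -0.16 with DESeq2, -0.0067 with a pseudocount of 5, -0.16 with the olfactory covariate, -0.21 with the read covariate, -0.29 in the shared range, and -0.14 to 0.15 without single regions. A variance of each gene alone, an alternative chosen after seeing the data, called 289 and 42. Where both groups hold a few reads of a gene, a difference that did not pass was not detectable at this depth and may still exist.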
